A study of Rattus norvegicus with 24 samples.

Results

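The silica effect, the log2 difference between silica and saline lungs, was compared between day 28 and day 14 for every gene of the rat lung. The value reported for a gene is the silica effect at day 28 minus the silica effect at day 14, taken on log2(FPKM + 1), where FPKM is the fragment count scaled by transcript length and library size. Genes entered when their FPKM was at least 0.5 in at least 6 of the 24 libraries, which kept 20856 of the 32489 genes of the table, and 2071 of these were called with a Benjamini-Hochberg adjusted p under 0.05 in limma. The lungs came from male Wistar rats aged 5 to 6 weeks, 6 to a group, that received normal saline or a 200 mg/mL suspension of silica particles by intratracheal instillation and were taken at day 14 or day 28. All 24 animals went through the instillation, there were no untreated lungs, and each library is whole-lung poly-A RNA labelled as a separate biological replicate. The dose in mass per animal, the particle size, the extraction batches and the hour at which tissue was taken are not given in the sources used here. The depth, recovered from the steps of the FPKM values, was about 55062000 reads in the shallowest library and 84604000 in the deepest.

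Inhaled crystalline silica is taken up by alveolar macrophages, is poorly cleared, and leads to chronic inflammation, nodules and scarring in the lung. Silica placed in the airway of rodents gives an early inflammatory phase followed by collagen deposition over weeks, which is why an early and a later day are studied. A difference between the effects at the days compares silica lungs with the saline lungs of their own day, so it can come from a change over time in silica lungs, in saline lungs or in both. Each called gene was therefore traced to the group mean that moved: day 28 was set against day 14 within saline and within silica in the same limma fit.

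Libraries of saline day 28 stood apart in the percent of reads on mitochondrial genes. The 13 mitochondrially encoded protein genes took 5.29% of the reads ± 2.14 (SD, n = 6) in saline at day 28 and 2.50% ± 0.652 in saline at day 14, against 2.17% ± 0.2 and 2.66% ± 0.686 in silica at day 14 and day 28. Saline replicates 1, 2 and 6 of day 28 had 8.58%, 5.28% and 6.91%, and replicates 3, 4 and 5 had 4.30%, 2.68% and 3.99%. The rise over time in saline had an exact permutation p of 0.00433 (two-sided, 6 against 6 libraries, adjusted 0.013 over 4 comparisons), and the lower percent of silica against saline at day 28 had an exact p of 0.00649 (adjusted 0.013). In silica the change over time had an exact p of 0.0519. Saline day 28 replicates 1, 2 and 6, which had the highest percents of the group, were left out in a further fit. In that fit 3 members of the gene lists were still called, Fbn1, Jund and H1fx, and no other list member was called with these 3 fewer libraries.

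Of the 20856 genes tested, 9.93% were called for the difference. The 1048 called genes with a higher silica effect at day 28 were 5.02% of those tested, and the 1023 with a lower one were 4.91%. The smallest adjusted p was 0.0048, the size of the difference ran from 0.248 to 3.94 on the log2 scale among called genes, and it was at least 1 for 458 of them, 225 higher and 233 lower. In 1979 of the called genes, or 95.6%, the silica effect had opposite signs at the 2 days, against 55.8% of all genes tested. By day, 4.37% of genes tested were called for silica against saline at day 14 and 13.8% at day 28. Of the genes called for the difference, 346 were called for silica at day 14 alone, 951 at day 28 alone, 62 at both days and 712 at neither.

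Most called genes were called over time in saline and not in silica. Day 28 against day 14 within saline was called for 5255 genes, or 25.2% of those tested, and within silica for 1 gene, or 0.00479%. At an unadjusted p under 0.05 the counts were 8020 in saline and 1838 in silica. Among the called genes 466 had an unadjusted p under 0.05 in silica, 369 of them in saline as well. Among the 2071 genes called for the difference, 1813 (87.5%) were called over time in saline alone, 1 in silica alone, none in both and 257 in neither. Of the 1813 genes, 926 had a higher and 887 a lower silica effect at day 28. The saline time change shares its 12 libraries with the difference that chose these genes, so the classes describe the calls and are not a second test of them.

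The sizes of the changes in the called genes are given as a description, since the choice of genes by the difference sets their signs and favours large changes in either arm. In genes with a higher silica effect at day 28 the median change over time was -0.54 in saline and 0.16 in silica, and in genes with a lower one it was 0.55 and -0.17. The median silica effect of the first set went from -0.33 at day 14 to 0.38 at day 28, and that of the second from 0.31 to -0.41. Over all genes tested the median difference was -0.05 and the median changes over time were 0.04 in saline and -0.00087 in silica. The time changes had opposite signs in 1858 called genes, and the saline change was the larger in 1876. The mean that lay farthest from the other 3 was saline day 28 in 1173 called genes, saline day 14 in 703, silica day 14 in 130 and silica day 28 in 65. Saline day 28 was the farthest mean in 56.6% of called genes and in 44.8% of all genes tested.

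The same holds for counts of libraries that do not overlap, which share the saline comparison with the choice of genes. The saline groups of the 2 days did not overlap in 975 called genes (47.1%), against 8.46% of all genes tested. The silica groups did not overlap in 39 called genes (1.88%), against 0.686% of all. Both pairs were free of overlap in 3 called genes. The median standard error over genes was 0.153 for a change over time and 0.216 for the difference between effects, so the contrast asked about here is the least precise of those fitted.

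**Figure D1:**
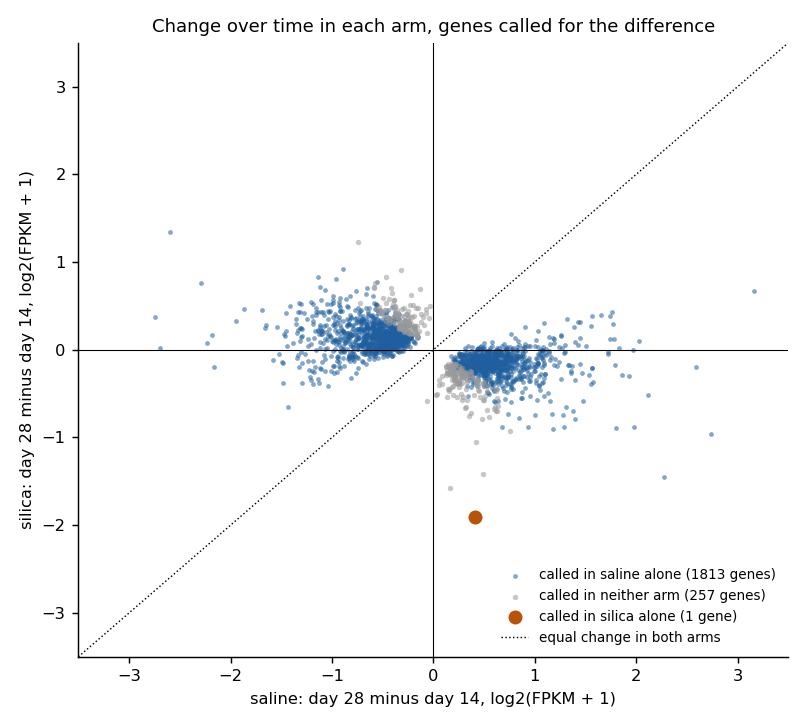
Change from day 14 to day 28 in saline (x axis) and in silica (y axis), both in log2(FPKM + 1), for each of the 2071 genes called for the difference; points are genes, coloured by the arm in which the change over time was called, and the dotted line marks equal change. The 1813 genes called in saline alone spread farther along the x axis than along the y axis, 257 genes called in neither arm have median absolute changes of 0.272 in saline and 0.343 in silica, and the 1 gene called in silica alone, Dbp, lies low.

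Leaving out saline day 28 replicates 1, 2 and 6 left 8 genes called, 7 lower and 1 higher, with 3932 at an unadjusted p under 0.05 against 6054 before. All 2071 genes kept the sign of their difference without these libraries, and its median size in the called direction went from 0.719 to 0.564. The 8 genes were Fbn1, H1fx, Jund, Pnrc1, Metrnl, Cnppd1, Hlx and Rnf31, and the last 4 are named here because they are in this count. Metrnl, which encodes a secreted protein of muscle and fat, had -0.77 with all libraries and -0.97 without the 3. Hlx, a homeobox transcription factor, had -0.52 and -0.73, Cnppd1 -0.46 and -0.51, and Rnf31, the catalytic subunit of the linear ubiquitin ligase, -0.74 and -0.78. Leaving out the other 3 saline libraries of day 28, replicates 3, 4 and 5, gave 5237 calls. A fit with the mitochondrial percent as a covariate gave 2, Cnppd1 and H1fx, both lower. All 2071 genes kept their sign in the covariate fit, with a median size of 0.557 in the called direction. The percent was itself highest in saline at day 28, so that fit cannot fully part the percent from the group.

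The called genes were chosen with these same libraries, so that the place of saline day 28 below or above saline day 14 was set by the choice, and the values per library describe it. Taken per library as the median over genes with a higher silica effect at day 28, relative to the mean of saline day 14, saline day 28 replicates 1, 2 and 6 lay at -0.75, -0.65 and -0.60 and replicates 3, 4 and 5 at -0.49, -0.33 and -0.34. The saline libraries of day 14 ran from -0.17 to 0.12. Silica libraries of day 14 lay between -0.66, in replicate 4, and -0.12, and silica libraries of day 28 between -0.27 and -0.01. For genes with a lower silica effect the saline libraries of day 28 lay at 0.70, 0.78, 0.43, 0.39, 0.29 and 0.65 in replicates 1 to 6, and silica day 14 replicate 4 at 0.61. The part of the mitochondrial percent in these differences was not tested beyond the covariate fit and the left-out libraries.

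**Figure D2:**
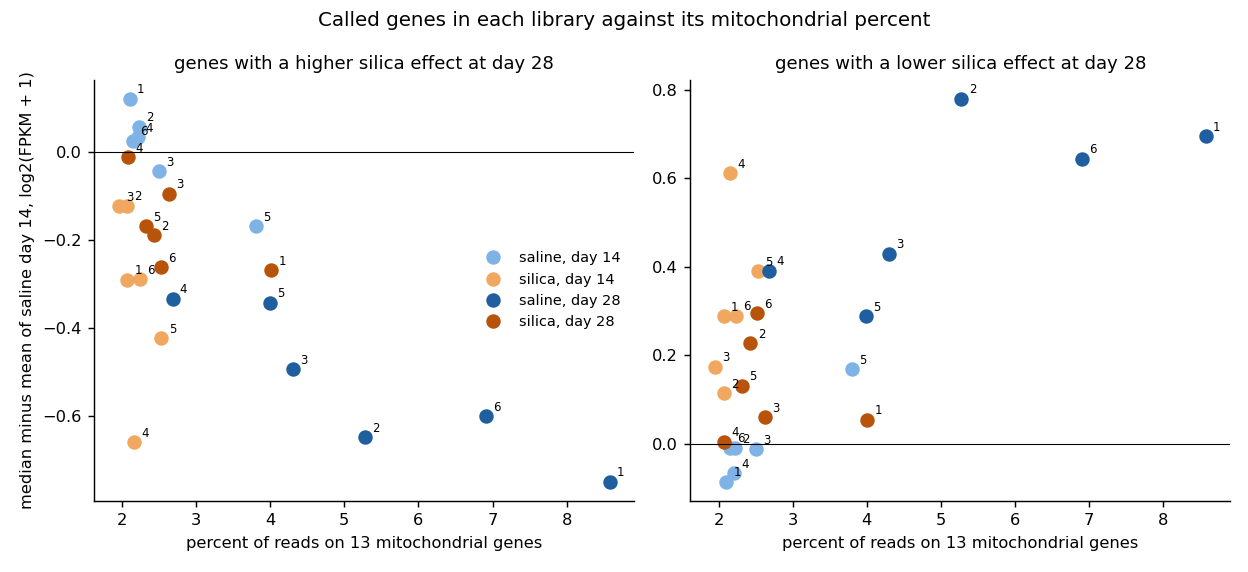
Median over the called genes in each library, relative to the mean of saline day 14 in log2(FPKM + 1), against the percent of reads on the 13 mitochondrially encoded genes; each point is a library and carries its replicate number. Genes with a higher silica effect at day 28 (left) lie at -0.75, -0.65 and -0.60 in saline day 28 replicates 1, 2 and 6, which have 8.58%, 5.28% and 6.91%, and at -0.66 in silica day 14 replicate 4, which has 2.16%; genes with a lower silica effect (right) are highest in the same 4 libraries.

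Every extracellular matrix gene tested had a difference above 0, and most of them fell over time in saline. Of 23 members tested, 10 were called higher and none lower, beside 5.02% and 4.91% of all genes. All 23 differences were above 0, with a median of 0.80 against -0.05 over all genes. Within saline 21 members were called lower at day 28 than at day 14, beside 25.2% of all genes called there in either direction. The median change in saline was -0.98. No member was called within silica, as for all but 1 gene tested, and the silica median was -0.20. All 10 called members were called over time in saline alone. In whole lung a fall of such genes cannot be told apart as fewer matrix-producing cells or less RNA per cell. The members were chosen with earlier results of these data known.

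Fbn1 (ENSRNOG00000007302) encodes fibrillin-1, the scaffold protein of elastic microfibrils. Its FPKM was 27.4 to 36.1 (median 28.4) in saline at day 14 and 15.3 to 23.6 (median 18.1) in silica at day 14, then 11.2 to 15.3 (median 13.5) in saline and 14.5 to 24.3 (median 18.4) in silica at day 28. Every saline library of day 14 lay above all 18 other libraries, while the silica groups of the 2 days overlapped. The change over time was -1.16 in saline (adjusted p = 1.44e-05) and -0.0016 in silica (adjusted p = 0.998). The silica effect accordingly went from -0.68 to 0.48, a difference of 1.15 (SE 0.167, adjusted p = 0.0048). Without saline day 28 replicates 1, 2 and 6 the difference was 1.06 (adjusted p = 0.0385).

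Col1a1 (ENSRNOG00000003897), the alpha 1 chain of type I collagen, was at 83.6 to 131 FPKM (median 122) in saline and 68.5 to 104 (median 77.0) in silica at day 14, and at 36.1 to 57.2 (median 52.8) and 56.2 to 81.5 (median 68.3) at day 28. Saline libraries of the 2 days did not overlap and silica libraries did. The difference between effects was 0.92 (SE 0.174, adjusted p = 0.00907), with changes over time of -1.18 in saline and -0.26 in silica. The type III collagen gene Col3a1 had mean FPKM of 1406 and 1162 in saline and silica at day 14 and of 576 and 895 at day 28, a difference of 0.92 (adjusted p = 0.0115). Col1a2, Col5a2 and Col15a1 had 0.72, 0.50 and 0.94, and the basement membrane chains Col4a1 and Col4a2 had 0.80 and 0.86. Eln, the elastin gene, had a mean of 583 FPKM in saline at day 14 and 213 at day 28, and 398 and 258 in silica, a difference of 0.78 (adjusted p = 0.0387). Fbln1, a fibulin of elastic fibres and basement membranes, had 0.97 (adjusted p = 0.0113).

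Other matrix members had differences of like size without being called. Tnc, the tenascin C gene, had 0.72 (adjusted p = 0.0512), the proteoglycan gene Bgn 0.68 (adjusted p = 0.0512), the periostin gene Postn 0.82 (adjusted p = 0.053) and the fibronectin gene Fn1 1.00 (adjusted p = 0.0801). Without saline day 28 replicates 1, 2 and 6 the list's median was 0.56 and Fbn1 was the 1 member called. The summed FPKM of the list was 8815 to 11110 in saline and 6810 to 9353 in silica at day 14, and 3646 to 5873 and 4642 to 7987 at day 28.

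**Figure D3:**
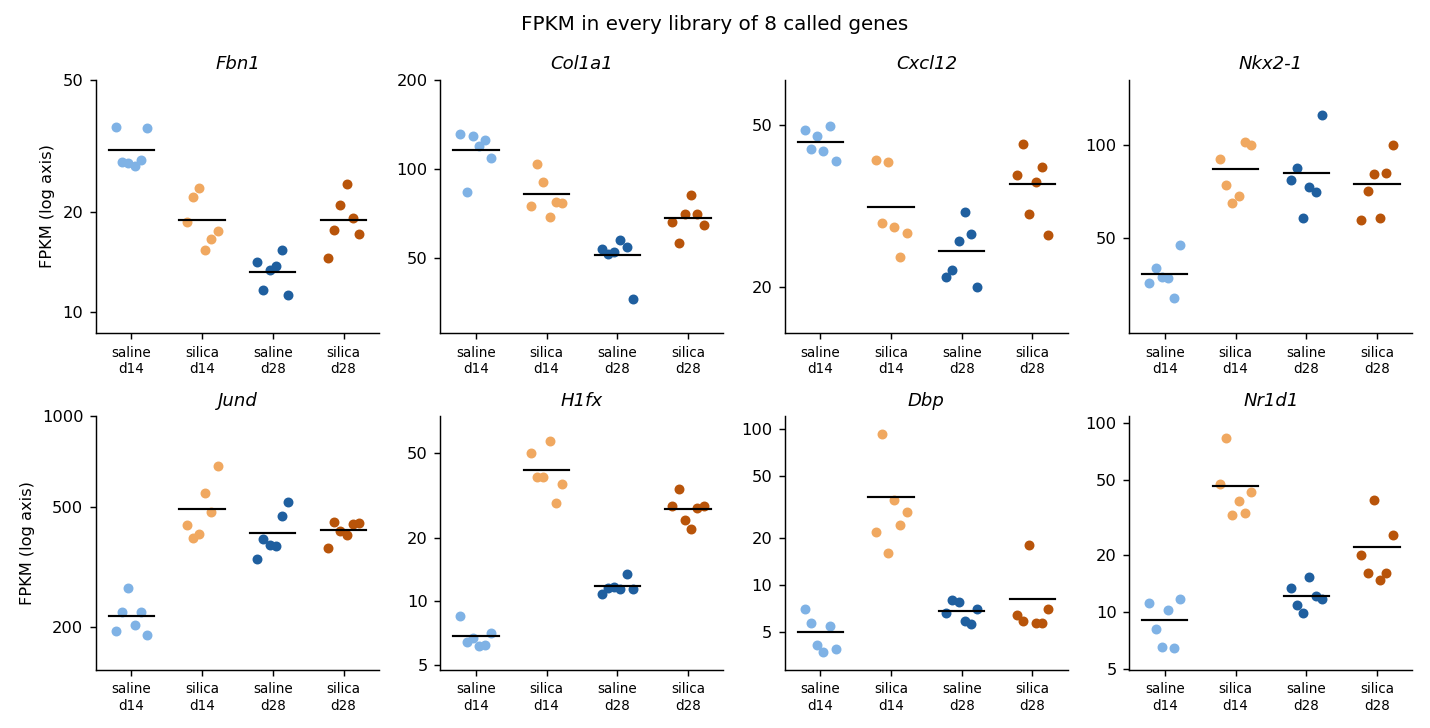
FPKM of 8 called genes in every library on log axes; each point is a library, the 4 columns of a panel are the groups, and the black line is the group mean. Fbn1, Col1a1 and Cxcl12 are lower in saline at day 28 than at day 14, Nkx2-1, Jund and H1fx are higher, and Dbp and Nr1d1 are highest in silica at day 14, where 1 library of Dbp reaches 92.3.

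Among enzymes that cut matrix 2 were called, both over time in saline alone. Of 13 genes of metalloproteinases and the plasminogen system Mmp14 and Mmp2 were called higher, beside 5.02% of all genes. None was called lower, and the median difference was 0.65. Mmp14 encodes a membrane-anchored collagenase that activates the gelatinase encoded by Mmp2. Mmp14 was at 19.0 to 26.3 FPKM in saline and 16.3 to 29.2 in silica at day 14, and at 9.64 to 16.5 in saline and 18.6 to 27.7 in silica at day 28, a difference of 0.79 (SE 0.188, adjusted p = 0.0177). Its saline libraries of day 28 lay below every other library but 1 silica library, at 16.3, of day 14. Mmp2 had a difference of 0.83 (adjusted p = 0.0222), with -1.07 over time in saline and -0.24 in silica. Without the 3 saline libraries the differences were 0.54 and 0.59, neither called.

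Genes of TGF-beta and activin signalling were called higher in small numbers. Of 19 genes of TGF-beta and activin signalling, Tgfbr2, Smad3 and Acvr1 were called higher and none lower, beside 5.02% of all genes called higher, and the list's median was 0.21. No member was called without saline day 28 replicates 1, 2 and 6, where the median was 0.25. Tgfbr2, the type II TGF-beta receptor, had a difference of 0.66 (adjusted p = 0.0377) and fell over time in saline by 0.57 on the log2 scale. Smad3, a transducer of TGF-beta receptors, had 0.45 (adjusted p = 0.0229) with -0.18 in saline and 0.27 in silica, neither called. Acvr1, a type I receptor for bone morphogenetic proteins and activins, had 0.95 (adjusted p = 0.0283), and its lowest mean was in silica at day 14, 10.7 FPKM against 18.0 in saline.

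Of 21 Wnt signalling genes 4 were called higher, beside 5.02% of all genes, and none lower, with a median of 0.42. All 4 were called over time in saline alone. None was called without the 3 saline libraries, where the median was 0.355. Wnt5a and Wnt2, which encode secreted ligands, had 0.85 (adjusted p = 0.0155) and 1.31 (adjusted p = 0.02), and the coreceptor gene Lrp6 and the receptor gene Fzd1 had 0.62 (adjusted p = 0.0255) and 0.58 (adjusted p = 0.0466). Wnt5a was at 8.95 to 15.1 FPKM in saline at day 14 and 5.18 to 7.58 at day 28, ranges that did not overlap, and at 5.47 to 10.7 and 6.96 to 9.47 in silica. In the Notch list 1 of 16 was called higher and 2 lower, beside 5.02% and 4.91% of all genes. Notch3, a receptor of vascular smooth muscle, had 1.18 (adjusted p = 0.0246), Notch4, a receptor of endothelium, -1.01 (adjusted p = 0.0153), and their target gene Hes1 -0.79 (adjusted p = 0.00994). Hes1 rose over time in saline, from a median of 39.2 to 54.6 FPKM, and had 50.9 and 42.1 in silica.

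Markers of fibroblasts and of smooth muscle and pericytes were called higher in part. Of 12 fibroblast markers 3 were called higher, Wnt2, Npnt and Pdgfrb, beside 5.02% of all genes, with a list median of 0.66. Of 11 smooth muscle and pericyte markers 3 were called higher, Notch3, Rgs5 and Mylk, with a median of 0.23. Pdgfrb, the PDGF receptor of mesenchymal cells, had 1.34 (adjusted p = 0.023), and Rgs5, a G protein regulator of pericytes, 1.47 (adjusted p = 0.0246). All 6 calls were over time in saline alone. Without saline day 28 replicates 1, 2 and 6 the medians were 0.38 and 0.18. The endothelial list had a median of 0.02, with 9 of 14 members above 0. Of these 14 markers Aplnr, the apelin receptor gene, and Cdh5, which encodes VE-cadherin, were called higher at 0.58 and 0.78. The transcription factor gene Sox17 was called lower at -0.79, beside 4.91% of all genes called lower. The chemokine gene Cxcl12, made by stromal and endothelial cells, had a difference of 1.08 (SE 0.192, adjusted p = 0.00861). It was at 40.8 to 49.8 FPKM (median 45.3) in saline at day 14 and 20 to 30.6 (median 23.9) at day 28, with no overlap, and at 23.7 to 41.0 (median 28.3) and 26.8 to 44.9 (median 37.1) in silica, with overlap. Without the 3 saline libraries its difference was 0.89 (adjusted p = 0.0795).

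**Figure D4:**
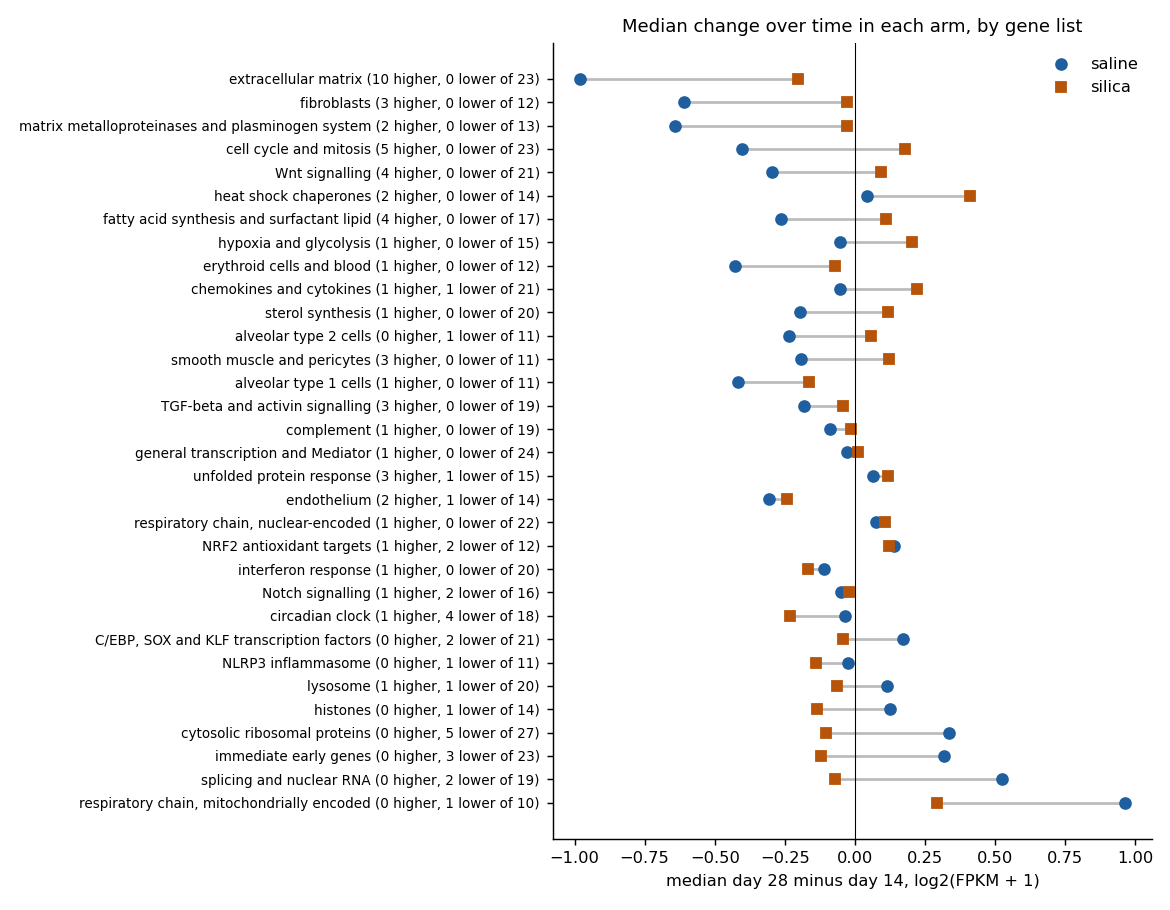
Median change from day 14 to day 28 over the tested members of each gene list, in log2(FPKM + 1), in saline (circles) and silica (squares); lists with at least 10 tested members and at least 1 call are shown, with the number of members called higher and lower for the difference between silica effects. Matrix, fibroblast and metalloproteinase lists have saline medians of -0.98, -0.61 and -0.64 with silica medians nearer to 0, and the mitochondrially encoded, splicing and ribosomal lists have saline medians of 0.96, 0.52 and 0.33.

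Of 21 chemokine and cytokine genes 2 were called, near the 9.93% of all genes, and the list's median turned from 0.33 to -0.17 without saline day 28 replicates 1, 2 and 6. Cxcl12 was called higher and Il18, the inflammasome cytokine gene, lower, at -0.78 (adjusted p = 0.0383). Il18 had means of 16.3 and 23.2 FPKM in saline and of 20.6 and 17.1 in silica at days 14 and 28. Ccl2, a monocyte chemokine gene, had 1.88 (adjusted p = 0.0717) and Il1b -0.26 (adjusted p = 0.671). Irf9, the DNA-binding subunit of the interferon-activated complex ISGF3, was the 1 gene called of 20 in the interferon list, beside 9.93% of all genes. It was at 13 to 21.3 FPKM in saline and 9.85 to 22.9 in silica at day 14, and at 0.215 to 11.7 and 9.41 to 25.0 at day 28, so that saline at day 28 was lowest, without overlap with saline at day 14 and with overlap with both silica groups. Its difference was 2.34 (adjusted p = 0.0249), or 2.51 (adjusted p = 0.0795) without the 3 saline libraries, while the list's median was -0.04, and Stat2, the partner of Irf9 in that complex, had -0.17 (adjusted p = 0.253). The complement gene C7 was called higher at 0.85 (1 of 19 gene IDs), and in the lysosome list Scarb2, a lysosomal membrane protein, higher at 1.10 and the sialidase gene Neu1 lower at -0.51 (2 of 20, near the share over all genes). Beside the 9.93% of all genes, none of the tested markers of macrophages (15), neutrophils (9), T and NK cells (15) or B and plasma cells (11) was called. Neither was any of 9 mast cell markers or of 10 genes of MHC class II presentation. Over time in saline 6 mast cell markers were called lower and 1 higher, with a median change of -0.67, beside 25.2% of all genes called there in either direction.

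Epithelial markers gave 2 calls in opposite directions. Of 11 markers of alveolar type II cells 1, Nkx2-1, was called, near the 9.93% of all genes. None of 9 airway secretory markers or of 8 basal and transitional keratin markers was called. Nkx2-1 (ENSRNOG00000008644), the transcription factor of lung epithelial identity, was at 32.1 to 47.6 FPKM (median 37.3) in saline at day 14, 65.1 to 102 (median 82.2) in silica at day 14, 58.1 to 125 (median 75.2) in saline at day 28 and 57.3 to 99.8 (median 75.6) in silica at day 28. The saline libraries of day 14 lay below all others, and the other groups overlapped. Its difference was -1.20 (SE 0.228, adjusted p = 0.00907), or -0.96 (adjusted p = 0.0795) without the 3 saline libraries. The surfactant genes Sftpc, Sftpb and Sftpa1, which are made by alveolar type II cells, had 0.15, -0.42 and 0.30, none called. Of 11 markers of alveolar type I cells 1 was called, near the 9.93% of all genes. Akap5, which encodes a kinase-anchoring protein, was called higher at 1.38 (adjusted p = 0.0153), and the defining markers Ager, Aqp5 and Pdpn had 0.18, 0.06 and 0.23. Of 14 ciliated cell markers 11 were called higher over time in saline, beside 25.2% of all genes called there in either direction. The median changes were 0.86 in saline and 0.42 in silica. None of these markers was called for the difference, whose median was -0.31 and 0.00143 without the 3 saline libraries.

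Among 14 histone genes 1 was called, beside 9.93% of all genes, with a lower silica effect at day 28. H1fx (ENSRNOG00000027722), a linker histone gene, was at 6.19 to 8.57 FPKM (median 6.57) in saline and 29.0 to 57.4 (median 38.5) in silica at day 14, and at 10.8 to 13.5 (median 11.6) and 21.9 to 34.1 (median 28.0) at day 28. Silica lay above saline without overlap at both days, and the saline groups did not overlap. The silica effect went from 2.41 to 1.15, a difference of -1.26 (SE 0.178, adjusted p = 0.0048), with 0.70 over time in saline (adjusted p = 0.00112) and -0.56 in silica (adjusted p = 0.218, unadjusted 0.00018). It had -1.31 (adjusted p = 0.0299) without the 3 saline libraries. Histone families share sequence that a count by gene can split.

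Of 23 immediate early genes 3 were called lower and none higher, beside 4.91% and 5.02% of all genes, with a median of -0.55. Jund (ENSRNOG00000019568), an AP-1 subunit, was at 188 to 270 FPKM (median 214) in saline at day 14, and at 395 to 686 (median 460) in silica at day 14, 338 to 521 (median 384) in saline at day 28 and 366 to 448 (median 430) in silica at day 28. Saline at day 14 was again the group apart, below every other library. The difference was -1.12 (SE 0.179, adjusted p = 0.00625) and -1.10 (adjusted p = 0.0385) without the 3 saline libraries. Junb, another AP-1 subunit, had its mean apart in saline at day 28 instead, at 76.2 to 148 FPKM. That range lay above the 38.7 to 72.3 of saline at day 14 and the 46.1 to 76.0 of silica at day 28. It overlapped the 46.3 to 104 of silica at day 14. The difference of Junb was -1.27 (adjusted p = 0.0115). Klf2, a flow-responsive transcription factor of endothelium, had -1.12 (adjusted p = 0.0192), with a silica effect of 1.57 at day 14 and 0.44 at day 28. Fos and Egr1 had -1.75 (adjusted p = 0.054) and -1.34 (adjusted p = 0.172).

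Other regulators with the smallest p-values among the genes called in saline alone were Pnrc1 and Dexi. Pnrc1, a nuclear receptor coactivator, was at 34.0 to 38.5 FPKM in saline at day 14 and between 50 and 98.2 in every other library, a difference of -0.96 (SE 0.142, adjusted p = 0.0048). Dexi, first described as a dexamethasone-induced transcript, had means of 7.65 and 14.0 FPKM in saline and 12.9 and 10.6 in silica at days 14 and 28, a difference of -1.03 (adjusted p = 0.00625). Of 19 splicing and nuclear RNA genes the splicing factor genes Srsf7 and Srsf5 were called lower, at -0.88 and -1.03. The list's median was -0.56, and -0.15 without the 3 saline libraries. Polr2b, a subunit of RNA polymerase II, was the 1 member called of 24 of the general transcription list, beside 9.93% of all genes. It was higher at 0.65 (adjusted p = 0.0122).

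Cytosolic ribosomal protein genes all had differences below 0. Of 27 tested, 5 were called lower, Rplp2, Rps2, Rps15, Rps12 and Rplp1, beside 4.91% of all genes, and the median was -0.44. Of the 27, 12 were called higher over time in saline, beside 25.2% of all genes called there in either direction. None was called in silica, as for all but 1 gene tested, and the silica median was -0.10. Rplp2, an acidic stalk protein, was at 82.3 to 129 FPKM in saline and 98.6 to 291 in silica at day 14, with medians of 270 in saline and 141 in silica at day 28, a difference of -1.60 (SE 0.362, adjusted p = 0.0143). Rps2 had silica effects of 1.56 and 0.69. The list's median was -0.49 without the 3 saline libraries, with no member called, and reads of these genes can be shared with their processed pseudogenes. Among 10 mitochondrially encoded respiratory genes COX2 was the 1 called, near the 9.93% of all genes, lower at -1.15 (adjusted p = 0.0488). The median of these genes was -0.74, and -0.26 without the 3 saline libraries.

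In the 5 called genes of the circadian clock list the mean farthest from the others was that of silica at day 14, as in 130 of the 2071 called genes. The clock is a feedback loop in which CLOCK and BMAL1 (encoded by Arntl) activate genes through the E-box sequence CACGTG, including Nr1d1, the Per genes and the output factors Dbp and Tef, whose levels swing with the hour of day in most tissues. Of 18 clock genes 4 were called lower, Dbp, Nr1d1, Per3 and Tef, beside 4.91% of all genes. Arntl was called higher, beside 5.02%, and 13 were not called. No clock gene was called without saline day 28 replicates 1, 2 and 6. Dbp was called over time in silica alone, and the other 4 in neither arm. The list's median was -0.11, against -0.05 over all genes. The hour of collection of each group was not tested, since it is not given in the sources used here.

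The promoter windows of Dbp, Nr1d1 and Tef are shown because these genes had the largest clock differences, as RefSeq gives them for build GRCr8, from 250 bases before to 50 after the start, with any CACGTG in capitals.
Dbp, chr1:105312006-105312305, plus strand: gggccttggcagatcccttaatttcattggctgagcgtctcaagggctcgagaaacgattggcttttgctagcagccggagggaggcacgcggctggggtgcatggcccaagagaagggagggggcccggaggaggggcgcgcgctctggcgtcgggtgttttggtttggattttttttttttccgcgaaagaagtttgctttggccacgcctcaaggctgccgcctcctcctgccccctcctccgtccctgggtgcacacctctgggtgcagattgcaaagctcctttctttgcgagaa
Nr1d1, chr10:84229405-84229704, minus strand: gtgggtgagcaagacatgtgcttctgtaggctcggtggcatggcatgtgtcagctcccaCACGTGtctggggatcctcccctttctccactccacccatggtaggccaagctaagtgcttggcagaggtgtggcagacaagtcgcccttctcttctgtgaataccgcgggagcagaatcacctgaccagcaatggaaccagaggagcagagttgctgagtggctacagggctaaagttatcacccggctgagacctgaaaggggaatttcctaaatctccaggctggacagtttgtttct
Tef, chr7:115206577-115206876, plus strand: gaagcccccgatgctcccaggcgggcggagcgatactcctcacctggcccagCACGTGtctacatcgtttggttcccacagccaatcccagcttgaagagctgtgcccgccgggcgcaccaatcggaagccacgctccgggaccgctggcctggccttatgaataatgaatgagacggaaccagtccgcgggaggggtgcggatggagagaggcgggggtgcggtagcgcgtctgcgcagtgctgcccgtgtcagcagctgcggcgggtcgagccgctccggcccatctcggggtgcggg
The motif reads the same on both strands. It stood once in this Nr1d1 window and once in that of Tef, and not in those of Dbp and Per3 or in a second Nr1d1 window. Of all 33469 windows of 300 bases, 2148 (6.42%) held it. Arntl had no window in the table.

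Dbp (ENSRNOG00000021027), a PAR bZIP factor at the output of the clock, was at 3.74 to 7.08 FPKM (median 4.82) in saline at day 14 and 5.68 to 8.09 (median 6.87) at day 28. In silica it was at 16.1 to 92.3 (median 26.8) at day 14 and 5.72 to 18.1 (median 6.18) at day 28. Every silica library of day 14 lay above all saline libraries, and at day 28 the silica and saline ranges overlapped. The change over time was -1.91 in silica (adjusted p = 0.0307) and 0.41 in saline (adjusted p = 0.326). The silica effect went from 2.42 to 0.11, a difference of -2.32 (SE 0.42, adjusted p = 0.00876). Without saline day 28 replicates 1, 2 and 6 it was -2.24 with an adjusted p of 0.0795, and with the mitochondrial percent as a covariate it was -2.25 and not called. The difference stayed called when any 1 library was left out, the silica replicate at 92.3 included. The class of silica alone was less stable, with 0 genes in some of these fits and 1 or 2 in the rest. It held 0 without saline day 14 replicate 5 or without saline day 28 replicate 1, 3, 4 or 6. It also held 0 without silica day 14 replicate 4, 5 or 6 or without silica day 28 replicate 1, 4, 5 or 6.

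Nr1d1, which encodes the repressor REV-ERB alpha, was at 6.46 to 11.7 FPKM (median 9.23) in saline and 32.9 to 83.7 (median 41.2) in silica at day 14, and at 9.86 to 15.3 (median 12.0) and 14.9 to 39.5 (median 18.1) at day 28. Silica lay above saline without overlap at day 14 and overlapped it at day 28. Its difference was -1.47 (SE 0.315, adjusted p = 0.0121), with -1.06 over time in silica (adjusted p = 0.218). Per3, a period gene, had silica effects of 1.08 and -0.01 and a difference of -1.10 (adjusted p = 0.0291). Tef, a relative of Dbp, had 1.16 and -0.75 and a difference of -1.91 (adjusted p = 0.0448), called in 8 of the 24 fits that left out 1 library. Arntl ran the other way, with effects of -0.46 and 0.20 and a difference of 0.65 (adjusted p = 0.0408). Among members not called, Nr1d2 had -0.53, Per2 -0.73, Cry1 0.52 and Per1 0.12.

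The 257 genes called over time in neither arm include 4 of these clock genes. Over all 257 the median absolute change was 0.272 in saline and 0.343 in silica, the 2 changes had opposite signs in 256 of 257, and the larger change was in silica for 176 and in saline for 81. At an unadjusted p under 0.05 the silica arm held 218 of them and the saline arm 161. Those with the smallest p beside Nr1d1 were Olr1637, Ypel5 and Tesc, at -0.87, -0.48 and -0.98. Tesc, the calcium-binding protein tescalcin, was at 11.2 to 19.8 FPKM in silica at day 14, above every other library, the highest of which was at 10.8. Olr1637, an olfactory receptor gene by its symbol, was near the lower limit, at 0.177 to 1.76 FPKM over the 24 libraries.

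Chaperone genes lay partly in this class. Of 14 heat shock chaperone genes Hspd1 and Hspa8, which encode the mitochondrial HSP60 and the constitutive cytosolic HSC70, were called higher, at 0.55 (adjusted p = 0.0225) and 0.69 (adjusted p = 0.03), beside 5.02% of all genes. Without saline day 28 replicates 1, 2 and 6 they had 0.41 and 0.53, neither called. The list's median was 0.42, with 0.04 over time in saline and 0.41 in silica. No member was called over time in silica, as for all but 1 gene tested. Of 15 genes of the unfolded protein response Hspa5, Calr and Pdia4, all chaperones or folding enzymes of the endoplasmic reticulum, were called higher at 1.08, 0.77 and 0.74. The stress transcription factor Atf4 was called lower at -0.83 (adjusted p = 0.0187). These 4 calls stood beside 9.93% of all genes, and 3 of them were over time in saline alone and 1 in neither arm. The median of the 15 genes was 0.09, and -0.04 without the 3 saline libraries, where 0 were called. Hspa5 had means of 365 and 247 FPKM in saline and 260 and 384 in silica at days 14 and 28, so that the order of silica and saline turned. Of 12 NRF2 target genes Txnrd1 was called higher at 0.32, and Ftl1, the ferritin light chain, and Txn1, thioredoxin, lower at -0.82 and -0.69. Of these 3 calls, beside 9.93% of all genes, 2 were over time in saline alone and 1 in neither arm. Without the 3 saline libraries 0 of them were called.

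A minority of the lipid synthesis and cell cycle genes were called, each of them higher, beside 5.02% of all genes. Of 17 genes of fatty acid synthesis and surfactant lipid 4 were called higher and none lower, all called over time in saline alone, with a median of 0.40. None of these or of the sterol, hypoxia and cell cycle genes was called without the 3 saline libraries. Acly makes cytosolic acetyl-CoA and had 0.69 (adjusted p = 0.0153), the desaturase gene Fads2 0.71, the elongase gene Elovl5 0.75 and Pcyt1a, of phosphatidylcholine synthesis, 0.36. Acly was at 53.2 to 72.5 FPKM in saline at day 14 and 35.1 to 55.0 at day 28, and at 40.6 to 58.2 and 45.0 to 66.1 in silica, with overlap in both arms. Of 20 sterol synthesis genes the sterol carrier gene Stard4 was called, at 0.95 (adjusted p = 0.0204), and of 15 hypoxia and glycolysis genes the vasodilator peptide gene Adm, at 1.21 (adjusted p = 0.0223). Of 23 cell cycle genes 5 were called higher and none lower, with a median of 0.60: the kinesins Kif11 and Kif20a, the cyclins Ccnb1 and Ccna2, and the proliferation marker Mki67. Mki67 had means of 7.18 and 4.56 FPKM in saline and 3.96 and 5.51 in silica at days 14 and 28, a difference of 0.94 (adjusted p = 0.0476), and 0.63 without the 3 saline libraries.

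Across all lists 77 of 689 tested gene IDs were called, or 11.2%, beside the 9.93% of all genes, and 63 of the 77 were called over time in saline alone. The largest differences of single genes were mostly outside the lists. Myh9 (ENSRNOG00000004860), the heavy chain of nonmuscle myosin IIA, had the largest, 3.94 (SE 1.06, adjusted p = 0.0259). It was at 3.45 to 42.7 FPKM (median 33.8) in saline and 0.00758 to 18.0 (median 8.71) in silica at day 14, and at 0.318 to 13.9 (median 3.33) and 4.04 to 54.0 (median 13.9) at day 28. The groups overlapped at both days, and without saline day 28 replicates 1, 2 and 6 the difference was 3.12 (adjusted p = 0.17). Pcdhgc3 had 3.11 (adjusted p = 0.0409), and it shares its last exons with the other gamma protocadherins, so its level is uncertain.

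Lrrc8a, the pore subunit of the volume-regulated anion channel, had 3.05 (SE 0.595, adjusted p = 0.0099). It was at 14.0 to 23.4 FPKM in saline at day 14 and at 0.693 to 13.9 at day 28, just without overlap, and at 4.15 to 15.8 and 7.83 to 18.1 in silica. Aqp1, the water channel of lung endothelium, was at 88.5 to 324 FPKM in saline at day 14 and 17.1 to 49.9 at day 28, and at 33.2 to 96.6 and 48.4 to 141 in silica, a difference of 2.33 (SE 0.47, adjusted p = 0.0108). Saline at day 28 had the lowest mean in both genes, and the silica groups overlapped. Without the 3 saline libraries the differences of Lrrc8a and Aqp1 were 2.66 (adjusted p = 0.0711) and 1.90 (adjusted p = 0.0863). The others among the 12 were Irf9, Palm2 (2.72), Praf2 and Lrrc4 (both 1.97), Mcc (1.94), Cflar (1.88), an inhibitor of caspase 8 activation, RT1-M2 (1.82) and Ssh2 (1.81), a phosphatase that activates cofilin. Mcc is a symbol of 2 gene IDs in the table, and RT1-M2 belongs to the rat class I MHC family, whose members share reads. Lrrc4 was called in neither arm and the others in saline alone.

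At the lower end AC128792.1 (ENSRNOG00000036301), an unnamed transcript, had -3.72 (SE 0.882, adjusted p = 0.0177). It was at 20 to 30.3 FPKM in saline and 26.6 to 305 in silica at day 14, and at 49.1 to 286 in saline and 25.3 to 190 in silica at day 28. Scand1, a SCAN domain gene, had silica effects of 3.26 and 1.3 and a difference of -1.96 (adjusted p = 0.0355), with 1.79 over time in saline. Cracr2b, a regulator of calcium release-activated channels, was at 9.76 to 15.1 FPKM in saline at day 14 and 18.7 to 72.8 at day 28, without overlap, and its difference was -1.77 (adjusted p = 0.0187). RT1-N2, of the class I MHC family, Mlc1, the G protein subunit gene Gng13 and the lectin receptor gene Clec12b had -2.18, -2.07, -1.81 and -1.62. AY172581.24 and AY172581.9 had -1.83 and -1.78, and -0.78 and -0.73 without the 3 saline libraries. In saline at day 28 both were highest in replicates 1, 2 and 6, which had the highest mitochondrial percents of the group. AY172581.24 was at 1547, 2037 and 2338 FPKM there and at 512, 404 and 461 in replicates 3, 4 and 5. AY172581.9 was at 1611, 2629 and 3000 against 700, 447 and 514. AC142458.1 had -1.74, with its low mean in silica at day 28. Dbp and Tef complete these 12.

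Called genes with a higher silica effect at day 28 were longer than those with a lower one. Their median length, recovered from the FPKM steps, was 3537 bases against 1633, and 2008 over all genes tested. When the trend of each library on gene length was removed, 1577 genes were called, 796 higher and 781 lower, 1338 of them among the 2071.

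Muscle genes had large differences and no calls. The cardiac list had a median of 2.33 over 10 tested members and the skeletal list 0.98 over 6. The summed FPKM of the cardiac list was 41.4 to 1035 in saline and 37.7 to 151 in silica at day 14, and 28.4 to 73.0 and 20.6 to 2217 at day 28. That of the skeletal list was at most 129 in every group but silica at day 28, where it reached 18204. Ckm, the muscle creatine kinase gene, was at 0.29 to 2326 FPKM there, with a median of 1.58. The 2326 was in silica day 28 replicate 1, the same library that had 11976 FPKM of Acta1 and 1530 of Tnnt3. The part of muscle tissue in other results was not tested.

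**Figure D5:**
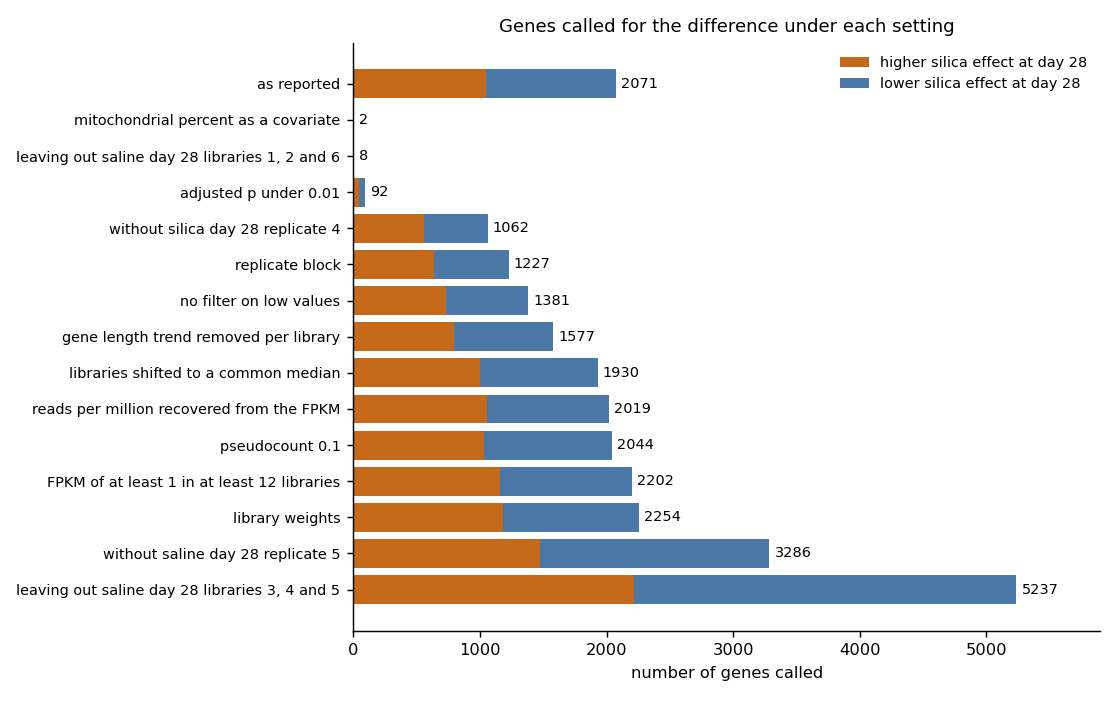
Number of genes called for the difference between silica effects, higher (orange) and lower (blue), under each setting, with the total at the end of the bar; of the fits that left out 1 library, those with the fewest and the most calls are shown. The count is 2071 as reported, 2 with the mitochondrial percent as a covariate, 8 without saline day 28 replicates 1, 2 and 6, and 5237 without replicates 3, 4 and 5.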

How the data were processed

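Poly-A RNA of 24 rat lungs was sequenced. The values are FPKM made and deposited by the authors, without pooling of replicates. The submitters' processing notes name cutadapt 4.0, FastQC 0.11.9, HISAT2 2.1.0, HTSeq 0.9.1 and the builds Rnor_6.0 and rn6, without roles. The strand of the libraries is not given in the sources used here, so a gene and an antisense partner cannot be told apart. The 2 deposited FPKM tables were identical (largest difference 0), and the authors' own comparison columns were not used. Of the 32489 gene IDs, 7529 carry no name.

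Genes that reached FPKM 0.5 in 6 or more libraries were fitted with limma 3.58.1 (R 4.3.3, trend and empirical Bayes) on log2(FPKM + 1) as 4 group means, which understates the change of low genes. All p-values are two-sided, with Benjamini-Hochberg adjustment over the 20856 genes tested. A called gene was classed by whether day 28 minus day 14 had an adjusted p under 0.05 within saline, within silica, in both or in neither. Whole reads and gene lengths were recovered from the FPKM steps for 100% of the 31521 genes with FPKM above 0, to within 0.02 of a read, and served for depth, mitochondrial percent, length and 1 alternative. The mitochondrial percent was compared with exact permutation tests, whose smallest p for 6 against 6 is 0.00216.

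Genes are named by rule: the 12 largest differences each way among called genes with a group mean of at least 1 FPKM and an assigned symbol, the 4 smallest p in each class, and up to 3 members of smallest p of each of 49 lists. Genes named beyond it are other members of the lists and those counted when libraries were left out. A symbol counted as assigned unless it was blank, a gene ID, a date or began with a set provisional prefix. The accession-like names AC128792.1, AC142458.1, AY172581.24 and AY172581.9 passed that check. The genes, lists and left-out libraries were chosen with earlier results of these data known. Replicate numbers do not pair the groups: over 36 pairs of equal number the mean correlation of deviations was -0.0234 (-0.296 to 0.127). Scripts were tested on simulated data. Replicates are labelled as biological, and nothing more is stated of how the animals were housed or processed together. Promoter windows come from RefSeq, build GRCr8, and no gene coordinates of the files' build are given. For 1 named gene the values are not reported here, and it is left out of the counts of libraries that stood apart.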

Additional observations from a re-analysis of the deposited data

Results flagged for a closer look

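In 75 of 668 groups of 6 libraries examined (11.2%, where chance gives about 1 in 20) the highest or lowest library lay farther from its nearest neighbour than Dixon's 95% limit allows. Of these, 2 were the mitochondrial percent, at 3.80% in saline day 14 replicate 5 and 4.01% in silica day 28 replicate 1. The skeletal muscle genes Acta1, Ckm and Tnnt3 were highest in that same silica library.

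Among the 6 libraries of saline at day 14, the following genes had 1 library apart, with its FPKM in parentheses. Replicate 1 stood apart for Hes1 (28.1). Replicate 3 stood apart for Pcdhgc3 (70.5) and Aqp1 (324). Replicate 4 stood apart for Kif20a (2.22). Replicate 5 stood apart for Myh9 (3.45), Tgfbr2 (223), Pdk4 (11.3), Txnrd1 (27.8), Ndufs1 (37.1), COX2 (2330), ND3 (895), Cebpb (0.752), Tnnt3 (29.3) and Csf1r (43.5). Replicate 6 stood apart for Lrrc8a (14.0).

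Among the 6 libraries of silica at day 14, the following genes had 1 library apart, with its FPKM in parentheses. Replicate 1 stood apart for AC142458.1 (2.44). Replicate 2 stood apart for Tnnt3 (31.5). Replicate 4 stood apart for Ssh2 (0.325), Cracr2b (28.4), Tgfbr2 (188), Acly (40.6), Pcyt1a (14.0), H2afv (59.2), Rps15 (996), Atp5f1b (399) and ND3 (877). Replicate 6 stood apart for Cflar (23.8) and Idi1 (11.9).

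Among the 6 libraries of saline at day 28, the following genes had 1 library apart, with its FPKM in parentheses. Replicate 1 stood apart for Cxcr2 (0.0881) and Klrd1 (6.23). Replicate 3 stood apart for Smad3 (12.4). Replicate 4 stood apart for Pcdhgc3 (105). Replicate 5 stood apart for H1fx (13.5) and Ciita (12.0). Replicate 6 stood apart for Col1a1 (36.1), Acvr1 (7.21), Sox17 (40.9), C1s (15.5) and Bpifb1 (0.851).

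Among the 6 libraries of silica at day 28, the following genes had 1 library apart, with its FPKM in parentheses. Replicate 1 stood apart for Cracr2b (39.4), Mmp2 (44.3), Smad3 (23.3), Ccnb1 (14.5), Ndufs1 (81.1), Atp5f1a (851), Atp5f1b (777), ND2 (3622), Srsf7 (29.1), Notch4 (10.6), RT1-DOb (16.2), Krt14 (291), Npnt (40.6), Ckm (2326), Acta1 (11976), Tnnt3 (1530) and Csf1r (34.3). Replicate 2 stood apart for AC128792.1 (190), AC142458.1 (13), Hspb1 (190), Acot1 (15.3), Kif20a (0.909), Cebpb (213) and Hdc (2.03). Replicate 3 stood apart for Dbp (18.1) and Cd4 (30.9). Replicate 5 stood apart for Scand1 (22.8), Mmp12 (9.81), Ccl2 (27.4), Adm (26.3) and Rgs5 (38.5). Replicate 6 stood apart for Gng13 (3.72), RT1-Bb (66.2) and Cxcr2 (2.73).

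The silica effect differed between the days in 2071 genes, or 9.93% of those tested, by the test of the difference itself (limma, adjusted over all genes tested). Of the 166 named genes 88 were among them. The naming rules take called genes and the smallest p-values, so that count was raised by the choice and cannot be read against the 9.93%. The differences, as log2 effect at day 28 minus day 14, were positive for Myh9 (3.94), Pcdhgc3 (3.11), Lrrc8a (3.05), Palm2 (2.72), Irf9 (2.34), Aqp1 (2.33), Lrrc4 (1.97), Praf2 (1.97), Mcc (1.94), Cflar (1.88), RT1-M2 (1.82), Ssh2 (1.81), Kif20a (1.71), Rgs5 (1.47), Akap5 (1.38), Pdgfrb (1.34), Wnt2 (1.31), Adm (1.21), Npnt (1.21), Notch3 (1.18), Fbn1 (1.15), Scarb2 (1.10), Ccnb1 (1.09), Cxcl12 (1.08), Hspa5 (1.08), Slc4a1 (0.98), Fbln1 (0.97), Stard4 (0.95), Acvr1 (0.95), Col1a1 (0.92), Kif11 (0.85), Wnt5a (0.85), C7 (0.85), Mmp2 (0.83), Mmp14 (0.79), Cdh5 (0.78), Calr (0.77), Ndufs1 (0.74), Fads2 (0.71), Acly (0.69), Hspa8 (0.69), Tgfbr2 (0.66), Polr2b (0.65), Lrp6 (0.62), Aplnr (0.58), Hspd1 (0.55), Mylk (0.54), Smad3 (0.45), Pcyt1a (0.36) and Txnrd1 (0.32). They were negative for AC128792.1 (-3.72), Dbp (-2.32), RT1-N2 (-2.18), Mlc1 (-2.07), Scand1 (-1.96), Tef (-1.91), AY172581.24 (-1.83), Gng13 (-1.81), AY172581.9 (-1.78), Cracr2b (-1.77), AC142458.1 (-1.74), Clec12b (-1.62), Rplp2 (-1.60), Nr1d1 (-1.47), Junb (-1.27), H1fx (-1.26), Nkx2-1 (-1.20), COX2 (-1.15), Jund (-1.12), Klf2 (-1.12), Per3 (-1.10), Dexi (-1.03), Srsf5 (-1.03), Notch4 (-1.01), Tesc (-0.98), Pnrc1 (-0.96), Srsf7 (-0.88), Rps2 (-0.87), Olr1637 (-0.87), Atf4 (-0.83), Ftl1 (-0.82), Sox17 (-0.79), Hes1 (-0.79), Il18 (-0.78), Txn1 (-0.69), Rps15 (-0.68), Neu1 (-0.51) and Ypel5 (-0.48). Slc4a1 encodes the erythrocyte anion exchanger and Ndufs1 a subunit of respiratory complex I.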

How the results depend on the processing

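The difference is built from 4 group means and had a median standard error of 0.216, against 0.153 for a change over time. The share of this that comes from depth was not tested. The count of 2071 called genes was 2044 with a pseudocount of 0.1, 2202 with the stricter filter, 1930 after a shift to a common median, 2019 on recovered reads scaled to library size, 1577 with the length trend removed and 2254 with library weights. Without a filter it was 1381 of 31521 genes, 649 of them lower. It was 2 (0 higher, 2 lower, 0 in saline alone) with the mitochondrial percent as a covariate, and 8 (1 higher, 7 lower, 8 in saline alone) without saline day 28 replicates 1, 2 and 6. Without saline day 28 replicates 3, 4 and 5 it was 5237 (2213 higher, 3024 lower, 4748 in saline alone), and at an adjusted p under 0.01 it was 92 (45 higher, 47 lower, 88 in saline alone). The replicate block, with numbers that do not pair the samples, gave 1227 calls (634 higher, 593 lower, 1109 in saline alone), 1203 of them shared. Genes called in silica alone numbered 0 under the block, without a filter, with the length trend removed, with weights, with the covariate, with either set of 3 libraries left out and at 0.01. The cause of these changes was not tested.

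With 1 library left out, calls ran from 1062 to 3286, higher calls from 560 to 1476, lower calls from 502 to 1810, genes in saline alone from 931 to 2923 and genes in silica alone from 0 to 2. Counts moved over 1.5 times without saline day 14 replicate 1 (1098), 2 (1281) and 4 (1220), saline day 28 replicate 1 (1094), 2 (1110) and 5 (3286), silica day 14 replicate 4 (1203) and 5 (1160), and silica day 28 replicate 3 (1185) and 4 (1062). The mitochondrial difference ran from 2.13 to 3.32 over time in saline, 0.227 to 0.613 in silica, -0.407 to -0.0678 at day 14 and -3.15 to -1.97 at day 28. As a share of summed FPKM it was 0.983 over time in silica (exact p = 0.00649) and -0.946 at day 14 (exact p = 0.00216, the smallest possible).

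None of the genes whose sign turned was called. Comp (-0.0181) had 0.295 with the pseudocount of 0.1, 0.00624 at a common median, 0.977 on recovered reads, 0.127 with the length trend removed, 0.00106 with weights, 0.203 with the covariate, 0.176 without saline day 28 replicates 1, 2 and 6, and -0.134 to 0.119 with 1 library left out. Fabp4 (0.340) had -0.155 with weights and -0.181 to 0.616 with 1 library left out, and Cidea -0.0269 to 0.325. The covariate gave 0.013 for ND3, -0.13 for Cd4 and -0.00627 for Sdc1, and Cd4 had -0.132 without the 3 libraries.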
